A study of Mus musculus with 8 samples.

Results

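Genes of the primary cilium and the centrosome were described in cultured mouse neural stem cells with and without a Phf23 knockout label. The members were the protein-coding genes whose symbol is Ift, Bbs, Cep, Nphp or Tctn followed by a number, together with Arl13b, Kif3a, Kif3b, Kif7, Dync2h1, Dync2li1, Mks1, Cc2d2a, Rpgrip1l, Ofd1 and Foxj1. This gave 75 of the 15538 genes in the table: 18 transport genes, 8 BBS genes, 10 transition zone genes, 36 centrosomal genes and 3 genes for ciliary signalling and its regulation. Of the annotated coding genes that match the rule, 0 lacked a row, so no member was lost to a filter on low values. Expression was measured by bulk sequencing of polyadenylated RNA from primary embryonic neural stem cells of mouse brain, grown as neurospheres, which are floating clusters of stem and progenitor cells. There were 4 libraries of the genotype WT (wild type 1 to 4) and 4 of the genotype Phf23-/- (labelled knockout 1 to 4). The labels give no other allele, no treatment, no embryonic age and no sex, and do not say how Phf23 was deleted. They also do not say whether the 4 libraries of a genotype came from separate cultures or embryos, so every p-value here speaks to the variation among these 8 libraries, part or all of which may be technical.

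The primary cilium is a single microtubule-based antenna on the surface of most vertebrate cells, and in neural progenitors it projects into the ventricle and receives Hedgehog and other signals. It grows from the older centriole of the centrosome, which docks at the membrane by its distal appendages, so a cell disassembles its cilium when the centrioles are needed for the mitotic spindle. Intraflagellar transport (IFT) trains, which hold the IFT-A and IFT-B complexes, carry cargo along it. Kinesin-II drives the trains outwards, for which IFT-B is needed, and dynein-2 drives them back, for which IFT-A is needed. The BBSome carries membrane proteins, and the transition zone at the base acts as the gate.

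Many ciliary genes carry an X-box, the site bound by RFX transcription factors, close to their start, so promoter sequences were read from RefSeq (build GRCm38.p6, 250 bases before to 50 after each start). An entry was found for 62 of the 75 members. The motif GTTNCCNNGGNAAC, searched on both strands, lay in the windows of 4 members (6.45% of the 62, against 0.529% of the 27025 genes of the RefSeq table). The windows before Bbs7 (chr3:36613478-36613540, minus strand) and Mks1 (chr11:87853161-87853214, plus strand) are shown for the surrounding bases, with the X-box in capitals, and the match alone is shown for Tctn1 (chr5:122264411-122264424, minus strand) and Cep19 (chr16:32099811-32099824, plus strand), where it lies after the RefSeq start.
Bbs7: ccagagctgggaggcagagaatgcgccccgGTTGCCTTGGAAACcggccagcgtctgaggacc
Mks1: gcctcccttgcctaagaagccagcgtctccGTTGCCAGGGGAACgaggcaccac
Tctn1: GTTGCCCGGGCAAC
Cep19: GTTGCCTTGGGAAC
Each sequence reads 5′ to 3′ on the strand of its gene. None of these 4 genes passed the limma test described below (0 higher and 0 lower, 2 with an unadjusted p under 0.05, and 0 by edgeR or DESeq2), and their log2 fold changes ran from -0.28 to 0.21. The 80 bases before the 3 members that rose are shown for comparison, from chr11:78536281-78536360 (plus strand), chr5:136908070-136908149 (plus strand) and chr15:78174108-78174187 (minus strand).
Ift20: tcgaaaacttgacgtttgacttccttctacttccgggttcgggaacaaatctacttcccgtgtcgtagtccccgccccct
Ift22: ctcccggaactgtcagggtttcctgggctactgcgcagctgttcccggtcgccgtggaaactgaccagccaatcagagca
Ift27: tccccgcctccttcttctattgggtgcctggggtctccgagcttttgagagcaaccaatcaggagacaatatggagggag
The X-box letters were not in the 300-base windows of these 3 genes. A shorter string found inside many X-boxes, GTTGCCA, which can overlap one as it does in Mks1, lay on either strand in the windows of 11 members (17.7%, against 5.02% of all genes). Of those 11, limma called 1 higher (Ift27) and 2 lower (Dync2h1 and Cep128), where it called 14.8% of all genes higher and 14.8% lower. A match is a description of the letters and does not show that a factor binds there.

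Phf23, the targeted gene, was higher in the libraries labelled knockout than in wild type, which goes against the label. It had 720.4, 766, 788 and 919 normalised reads across the 4 wild-type libraries in order and 1607, 1528, 1429 and 1361 across those labelled knockout. All 4 values under the knockout label exceeded all 4 wild-type values (log2 fold change 0.89 ± 0.106, FDR = 0.000581). A gene total does not show whether part of the gene was deleted, so it does not check the label, and directions below are between libraries as labelled.

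Recovered depth ran from 15647304 to 19462516 reads per library. Neural stem cell markers were abundant, with Sox2 at 5005 ± 1073 against 6574 ± 705 normalised reads and Nes at 18905 ± 1742 against 17652 ± 2769.6 (mean ± SD, wild type against the knockout label, n = 4 each). Of the 10 markers of that list 4 were called higher (Hes1 0.93, Fabp7 0.62, Sox1 0.60 and Msi1 0.45 as log2 fold changes, called at an FDR under 0.05) and 0 lower, with a summed level of 134971 to 145661 normalised reads in wild type and 156012 to 199344 under the knockout label. Among 6 oligodendrocyte lineage markers, 3 were called higher, with Mbp (2.16) and Sox10 (1.27) the largest, and 0 lower. The markers Olig1 (0.28), Olig2 (0.12) and Pdgfra (-0.07) were not called. Sums of this list overlapped, at 48043 to 69413 normalised reads in wild type and 60696 to 74728 under the knockout label. Of 4 astrocyte markers Gfap (0.91) and S100b (0.78) were called higher and Aqp4 (-0.95) and Aldh1l1 (-0.89) lower. Their sums were 3059 to 3732 in wild type and 2268 to 2532 under the knockout label. Most of each sum was Aldh1l1 (2746 ± 298 against 1479 ± 95.6 normalised reads). Of 6 neuronal markers Rbfox3 (1.63) and Neurod1 (1.15) were called higher, Map2 (-0.79) was called lower and 3 were not called. Their sums were 15227 to 20449 in wild type and 9298 to 12164 under the knockout label. Nearly all of each sum was Map2 (17464 ± 2504 against 10077 ± 1236), so these sums show little of the other markers. The part of these lists in the values of the members was not tested. Of 6 microglial markers 5 had no row in the table, and of 4 mesenchymal markers 3 had none. The libraries also differed in how values moved with transcript length. Per doubling of length, log2 values changed by 0.26, 0.20, 0.08 and 0.06 across the wild-type libraries in order and by -0.24, -0.31, -0.09 and 0.04 across those labelled knockout, over 13265 genes. Long transcripts were therefore relatively high in wild type 1 and 2 and low in knockout 1 and 2, while wild type 4 and knockout 4 had nearly equal slopes, and members differ widely in length. With a trend on length and GC content subtracted, as described below, Hes1 lost its call (0.61, FDR = 0.0675). The stem cell marker Vim (0.36) and the neuronal marker Dcx (0.64) were newly called higher in that fit. The other markers called above kept their calls.

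Among the 75 members, 3 rose and 18 fell in the libraries labelled knockout, and 54 did not pass the test. The test was limma-trend on log2(normalised reads + 1), two-sided. A gene was called where its false discovery rate (FDR), adjusted over all 15538 genes, lay under 0.05. The 3 that rose are 4.00% of the members, where 14.8% of all genes were called higher, and the 18 that fell are 24.0%, where 14.8% of all genes were called lower. In either direction the test called 29.6% of all genes. On whole reads recovered from the values, edgeR called the same 3 higher and 18 lower members, beside 35.4% of all genes in either direction (18.2% higher and 17.2% lower). DESeq2 called those 21 and, as higher, Ift43, beside 37.2% (18.6% higher and 18.5% lower). The median log2 fold change was -0.22 over the members and 0.00 over all genes, and 56 of the 75 values were negative. In 22 of the 75 the values of the genotypes did not overlap, which is 29.3% of the members beside 27.7% of all genes. In bulk RNA, fewer cells of a type and less RNA per cell cannot be told apart.

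**Figure D1:**
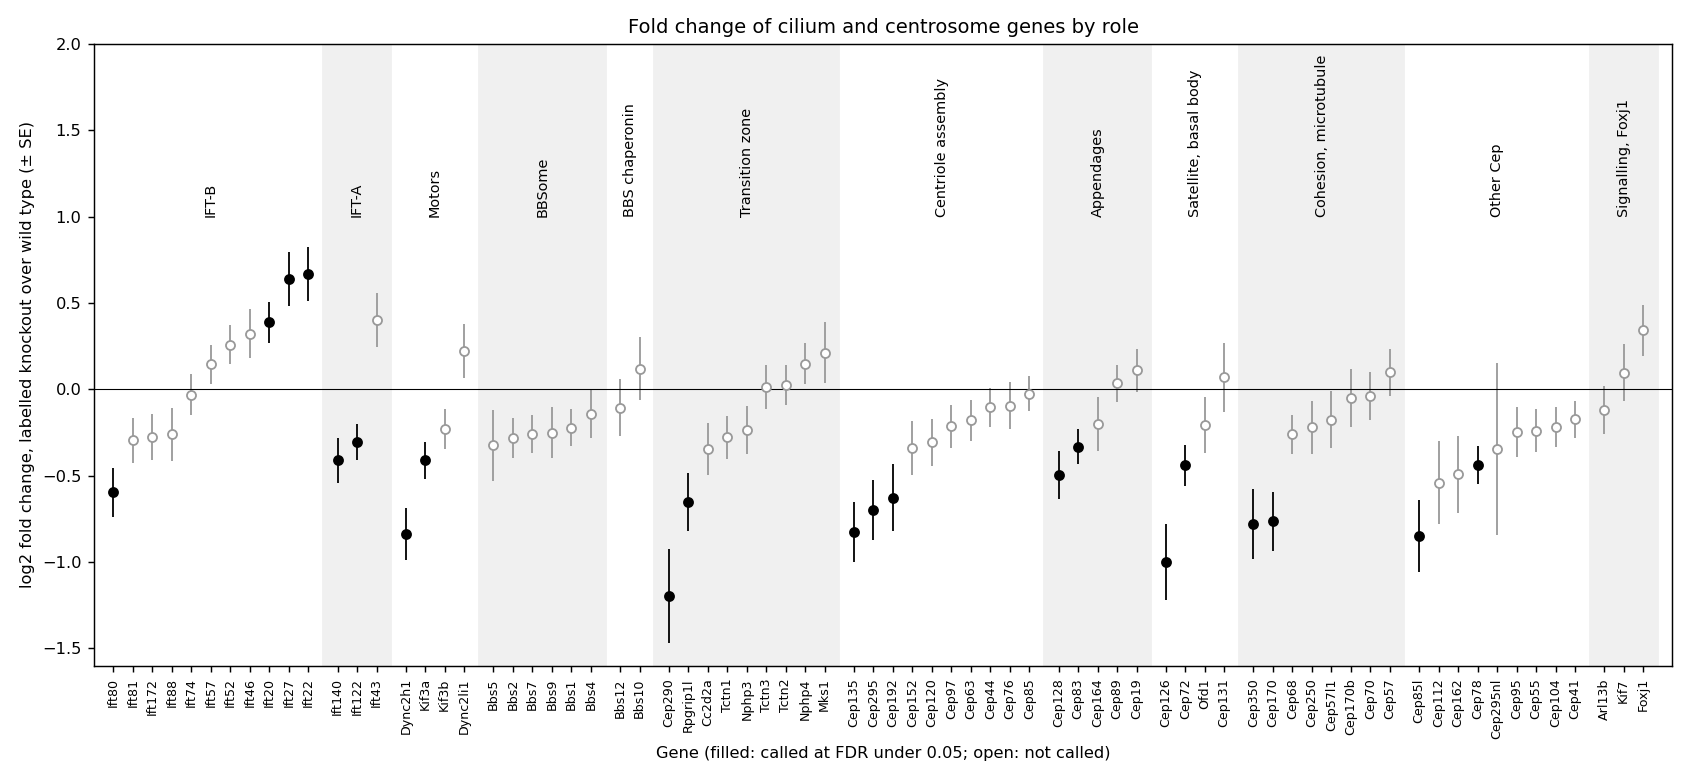
Log2 fold change (labelled knockout over wild type, ± SE, n = 4 each, vertical axis) of the members, all but 1 of them shown, grouped by role along the horizontal axis. Filled points passed FDR under 0.05. Ift22, Ift27 and Ift20 are the filled points above 0, all in IFT-B, and the lowest point is Cep290 at -1.20.

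The 4 main groups were measured side by side. Beside their counts, the test called 14.8% of all genes higher and 14.8% lower. Of the 18 transport genes 3 rose (16.7%) and 5 fell (27.8%), with a median log2 fold change of -0.13. None of the 8 BBS genes was called by limma in either direction (2 had an unadjusted p under 0.05, and edgeR and DESeq2 also called 0), with a median of -0.24. Of the 10 transition zone genes 2 fell (20%), with a median of -0.18. Of the 36 centrosomal genes 11 fell (30.6%), with a median of -0.24. The differences between groups were not tested. Median transcript length also differed: 3116 nt for transport, 3056 nt for BBS, 5256 nt for transition zone and 4504 nt for centrosomal genes. Counts with the trend on length subtracted are given after the group results.

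Summed levels are given in CPM, reads per 1000000 reads of the library. The 18 transport genes took 662, 677, 636 and 616 CPM across the 4 wild-type libraries in order and 595, 553, 593 and 607 across those labelled knockout. On this scale all 4 sums under the knockout label were below all 4 of wild type, but in normalised reads they overlapped (10725 to 11851 in wild type and 10654 to 10992 under the knockout label). The 36 centrosomal genes together took 1573, 1463, 1255 and 1234 CPM across the 4 wild-type libraries in order and 946, 924, 1083 and 1230.3 across those labelled knockout. Knockout 1 and 2 were lowest, and knockout 4 lay just below wild type 4 in CPM and just above it in normalised reads (21785 against 21497). The 8 BBS genes took 112, 112, 109.9 and 107 CPM across the 4 wild-type libraries in order and 93.4, 78.6, 93.5 and 99.1 across those labelled knockout, with knockout 2 lowest and no overlap between the genotypes. The 10 transition zone genes took 225, 218, 189 and 198 CPM across the 4 wild-type libraries in order and 164, 145, 179 and 198 across those labelled knockout, and here knockout 4 lay above wild type 3 and 4, so the groups overlapped.

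**Figure D2:**
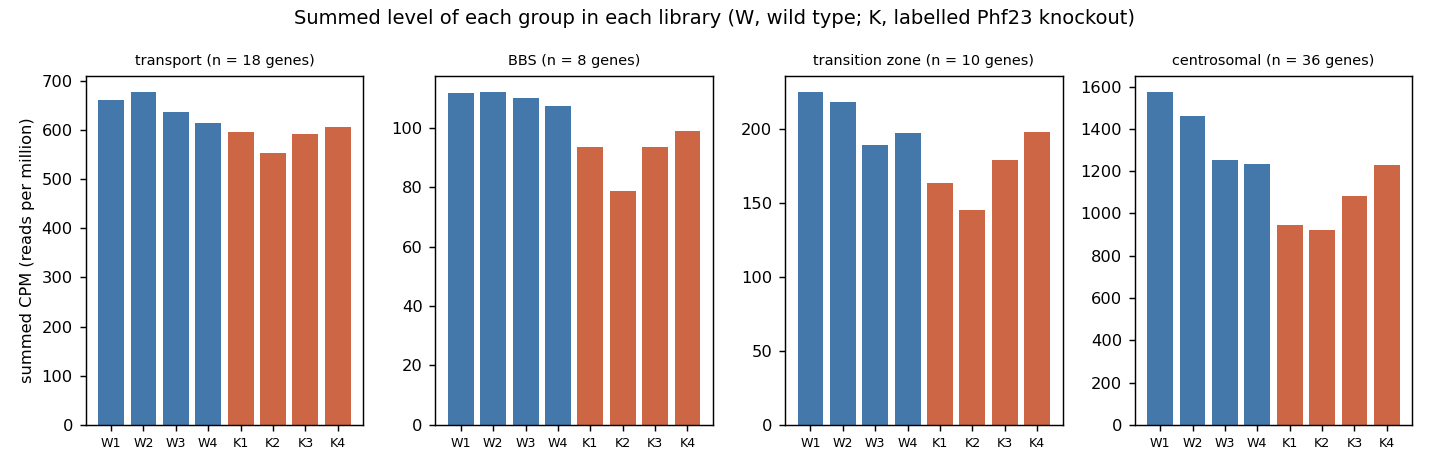
Summed CPM (vertical axes, from 0) of the transport, BBS, transition zone and centrosomal members in each of the 8 libraries. The centrosomal sum runs from 924 in knockout 2 to 1573 in wild type 1, and knockout 4, at 1230.3, sits beside wild type 4, at 1234.

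The transport genes moved in both directions, and the 3 members that rose were all subunits of the IFT-B train, with Ift22 and Ift27 each resembling a small GTPase. Ift22 (ENSMUSG00000007987, chr5:136908150-136915404, plus strand in GENCODE M21) had 281, 310.1, 405 and 374 normalised reads across the 4 wild-type libraries in order and 662, 594, 498 and 432 across those labelled knockout. Every library labelled knockout exceeded every wild type one, and the mean was 1.6 times as high (log2 fold change 0.67 ± 0.158, FDR = 0.0113). Ift27 (ENSMUSG00000016637, chr15:78159463-78174107, minus strand), which is known to help the BBSome leave the cilium, had 597, 620.1, 819 and 768 normalised reads across the 4 wild-type libraries in order and 1218, 1312, 1048 and 819.9 across those labelled knockout. The groups nearly touched, at wild type 3 and knockout 4 (log2 fold change 0.64 ± 0.156, FDR = 0.0126). Ift20 (ENSMUSG00000001105, chr11:78536361-78541737, plus strand), which also works at the Golgi in sorting membrane cargo to the cilium, had 459, 478, 516 and 474 normalised reads across the 4 wild-type libraries in order and 717, 694, 610.4 and 519 across those labelled knockout. The genotypes did not overlap, with wild type 3 next to knockout 4 (log2 fold change 0.39 ± 0.121, FDR = 0.0307). Its call was lost without knockout 1, knockout 2, knockout 3, wild type 1, wild type 2 or wild type 4 (log2 fold change 0.33 to 0.40, FDR 0.0516 to 0.101).

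In the opposite direction, the peripheral IFT-B subunit Ift80 was the only one of 11 IFT-B members to fall. Ift80 (ENSMUSG00000027778, chr3:68892499-69004570, minus strand) had 817, 723, 612 and 563 normalised reads across the 4 wild-type libraries in order and 365, 472, 499 and 453 across those labelled knockout, so that all 4 knockout-labelled values were below all 4 wild-type values (log2 fold change -0.60 ± 0.142, FDR = 0.0115). The remaining 7 IFT-B members were not called, and 3 of them had an unadjusted p under 0.05. Ift88, the core subunit most often deleted to remove cilia, was the lowest of the transport genes per length and had 162, 134, 124 and 116 in wild type and 116, 119, 96.8 and 113 under the knockout label, with overlap (log2 fold change -0.26, 95% interval -0.60 to 0.07).

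Of the 3 IFT-A subunits among the members, Ift122 and Ift140 fell and Ift43 did not pass. The IFT-A subunits with other names were not called (-0.37 for Ttc21b, -0.32 for Wdr19 and -0.13 for Wdr35). Ift122 (ENSMUSG00000030323, chr6:115853470-115926699, plus strand) had 730.2, 754, 626 and 669 in wild type and 524, 563, 577 and 578 under the knockout label, with no overlap (log2 fold change -0.31 ± 0.103, FDR = 0.0415). Ift140 (ENSMUSG00000024169, chr17:25016085-25099495, plus strand) had 1038, 1129.8, 1062 and 1045 in wild type and 771, 624, 899 and 959 under the knockout label, again with no overlap and with knockout 2 the lowest library (log2 fold change -0.41 ± 0.130, FDR = 0.0319). The call of Ift122 was lost without knockout 1, knockout 2, knockout 3, wild type 1 or wild type 2 (log2 fold change -0.32 to -0.27, FDR 0.0616 to 0.130), and that of Ift140 without knockout 1, knockout 2, wild type 1, wild type 2 or wild type 3 (log2 fold change -0.43 to -0.29, FDR 0.0611 to 0.0917). Ift43 had 177, 171, 183 and 217 in wild type and 330.2, 218, 236 and 217 under the knockout label. The genotypes just failed to overlap, knockout 1 stood well above the other 7 libraries, and the gene was not called by limma (log2 fold change 0.40 ± 0.157, FDR = 0.0689) although DESeq2 called it.

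Of the 4 motor subunits 2 fell. Dync2h1 (ENSMUSG00000047193, chr9:6928503-7184446, minus strand), the heavy chain of the dynein-2 motor that drives return transport and the longest member at 14264 nt, had 767, 794, 640.2 and 546 normalised reads across the 4 wild-type libraries in order and 336, 320.1, 422 and 457 across those labelled knockout. The lowest wild-type library was above the highest library labelled knockout (log2 fold change -0.84 ± 0.153, FDR = 0.00498). Its partner Dync2li1, the light intermediate chain, had 244, 206, 261 and 216 in wild type and 315, 324, 235 and 219 under the knockout label, with overlap and no call (log2 fold change 0.22, 95% interval -0.11 to 0.56). Of the paired kinesin-II motor subunits that drive outward transport, Kif3a (ENSMUSG00000018395, chr11:53567379-53601967, plus strand) had 1581, 1571, 1461 and 1397 normalised reads across the 4 wild-type libraries in order and 1127, 953, 1184 and 1271 across those labelled knockout. All 4 values under the knockout label lay below wild type (log2 fold change -0.41 ± 0.108, FDR = 0.0160), and the call was lost without knockout 1, wild type 1 or wild type 2 (log2 fold change -0.41 to -0.39, FDR 0.0504 to 0.0558). Kif3b had 1445, 1449, 1248 and 1243 in wild type and 1135, 989, 1135 and 1345 under the knockout label, so that its groups overlapped and it was not called (log2 fold change -0.23, 95% interval -0.48 to 0.02).

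**Figure D3:**
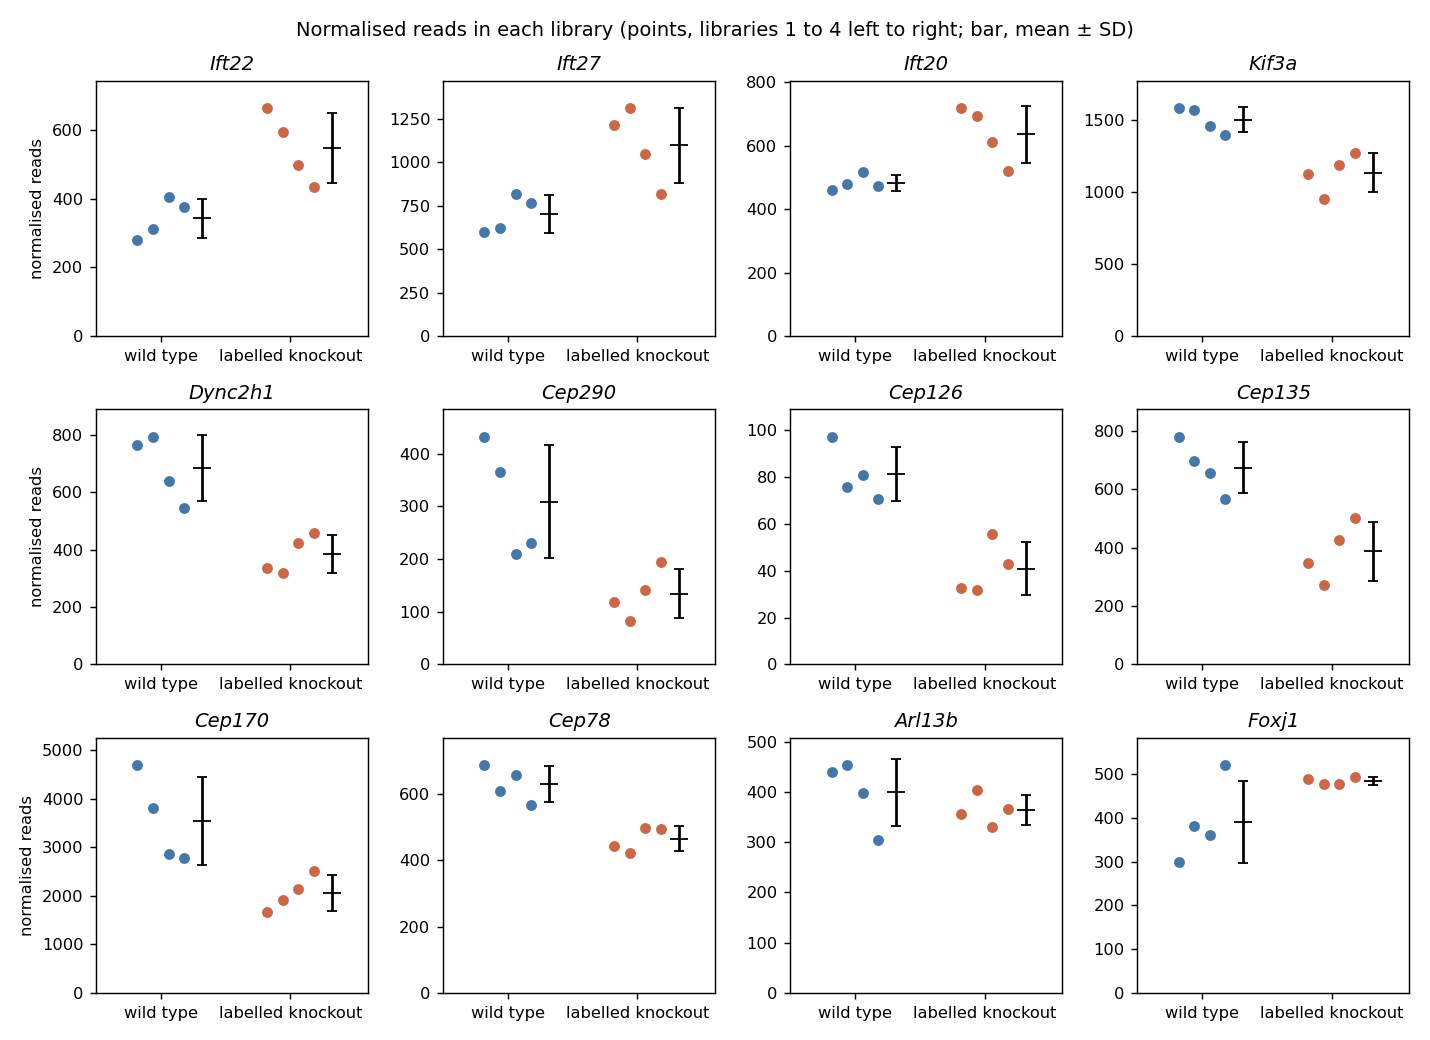
Normalised reads (vertical axes, from 0) of 12 members in each library, with libraries 1 to 4 from left to right within a genotype and the mean ± SD beside them. The knockout-labelled values of Ift22 lie at 432 to 662, above 281 to 405 in wild type, those of Cep126 lie at 31.6 to 55.8, below 70.7 to 97.2, and Arl13b and Foxj1 overlap.

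The 6 BBSome subunits among the members, parts of the coat that carries receptors out of the cilium, had negative log2 fold changes, from -0.32 to -0.14, and none was called. The BBSome subunits with other names, Ttc8 (-0.09) and Bbip1 (0.09), were not called either. Bbs2 had 362, 315, 321 and 297 in wild type and 262, 247, 271 and 283 under the knockout label. The highest knockout-labelled value was below the lowest wild-type value, but the test was not passed (log2 fold change -0.28 ± 0.115, FDR = 0.0799). Bbs7, which carries the X-box shown above, had 404, 447, 407 and 375 in wild type and 365, 342, 309.8 and 348 under the knockout label. Its groups did not overlap either, and it also missed the threshold (log2 fold change -0.26 ± 0.110, FDR = 0.0938). Bbs9 and Bbs1 overlapped between genotypes (log2 fold change -0.25, 95% interval -0.57 to 0.07 for Bbs9, and log2 fold change -0.22, 95% interval -0.46 to 0.01 for Bbs1). The chaperonin-like genes Bbs10 and Bbs12, whose products help the BBSome assemble, were both uncalled with overlapping groups (log2 fold change 0.12, 95% interval -0.28 to 0.52 for Bbs10, and log2 fold change -0.11, 95% interval -0.47 to 0.25 for Bbs12).

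In the transition zone, Cep290 and Rpgrip1l fell and the other 8 members were not called. Cep290 (ENSMUSG00000019971, chr10:100487558-100574840, plus strand), a long protein that bridges the microtubules and the membrane at the gate, had 432, 366, 209 and 229.6 normalised reads across the 4 wild-type libraries in order and 118, 83.2, 141 and 194 across those labelled knockout. It was the largest negative fold change among the members, and the genotypes did not overlap, with knockout 4 next to wild type 3 (log2 fold change -1.20 ± 0.270, FDR = 0.00976). Of its exonic bases 7.58% overlap the gene 4930430F08Rik on the opposite strand, and whether counting used strand is not given in the sources used here. Rpgrip1l (ENSMUSG00000033282, chr8:91217030-91313262, minus strand), which anchors other gate proteins, had 476, 378, 342 and 295 normalised reads across the 4 wild-type libraries in order and 189.6, 223, 236 and 294 across those labelled knockout. The gap between the groups was narrow, between wild type 4 and knockout 4 (log2 fold change -0.65 ± 0.169, FDR = 0.0152), and the call was lost without knockout 1 or wild type 1 (log2 fold change -0.56 to -0.53, FDR 0.0506 to 0.0571).

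Other gate components overlapped between the genotypes. Cc2d2a, a member of the MKS gate complex, had 899, 819, 621 and 599 in wild type and 547, 482, 599 and 664 under the knockout label, with knockout 4 inside the wild-type range (log2 fold change -0.35 ± 0.151, FDR = 0.101). Tctn1 had 311, 323, 297 and 330.4 in wild type and 272, 229.6, 238 and 306 under the knockout label, in which knockout 4 lay among the wild-type values (log2 fold change -0.28 ± 0.125, FDR = 0.110), and 19.0% of its exonic bases overlap Hvcn1.

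Of the 10 genes for centriole assembly and elongation, 3 fell and all 10 had negative log2 fold changes. Cep135 (ENSMUSG00000036403, chr5:76588698-76646466, plus strand), a protein of the cartwheel on which a new centriole forms, had 780.3, 696, 655 and 569 normalised reads across the 4 wild-type libraries in order and 348, 272, 427 and 503 across those labelled knockout. The 4 wild-type values were all higher, and knockout 2 was lowest (log2 fold change -0.83 ± 0.174, FDR = 0.00781). Cep295, needed for centrioles to elongate and mature, had 1175, 1014, 817 and 705 in wild type and 459, 493, 608 and 716 under the knockout label, with knockout 4 just above wild type 4 (log2 fold change -0.70 ± 0.175, FDR = 0.0137). Cep192, which recruits the kinase that starts centriole duplication, had 1721, 1434, 1094 and 986 in wild type and 636, 746, 902 and 1093 under the knockout label. Knockout 4 lay above wild type 4 (log2 fold change -0.63 ± 0.191, FDR = 0.0283). The call of Cep295 was lost without knockout 1 (log2 fold change -0.60, FDR = 0.0536), and 10.9% of its exonic bases overlap the antisense gene Gm16568. The call of Cep192 was lost without knockout 1, knockout 2, wild type 1 or wild type 2 (log2 fold change -0.58 to -0.48, FDR 0.0653 to 0.0977). Cep120, an elongation factor, had 1095, 927, 735 and 778 in wild type and 628, 715, 696 and 791 under the knockout label and was not called (log2 fold change -0.31 ± 0.134, FDR = 0.10). Cep152, which acts beside Cep192, had 465, 403, 409.5 and 349 in wild type and 275, 256, 369 and 400.2 under the knockout label, with knockout 3 and 4 inside the wild-type range (log2 fold change -0.34 ± 0.158, FDR = 0.12).

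Among the appendage genes, whose products let the older centriole dock at the membrane, 2 of 5 fell. Cep83, at the base of the distal appendages, had 786, 696, 709 and 678 in wild type and 527, 572, 598 and 580.2 under the knockout label. The groups did not overlap (log2 fold change -0.33 ± 0.10, FDR = 0.0273), but the call was lost without knockout 1, wild type 1, wild type 2 or wild type 3 (log2 fold change -0.35 to -0.29, FDR 0.0564 to 0.0887). Cep128, of the subdistal appendages, had 388, 398, 335 and 309 in wild type and 207, 246, 289 and 274 under the knockout label, with no overlap (log2 fold change -0.49 ± 0.139, FDR = 0.0208). Its call was lost without knockout 1, wild type 1 or wild type 2 (log2 fold change -0.45 to -0.40, FDR 0.0651 to 0.0718). Cep164, the distal appendage protein that recruits the kinase Ttbk2, had 909.8, 879, 723 and 893 in wild type and 653, 574, 807 and 986 under the knockout label, where knockout 4 was the highest of the 8 libraries (log2 fold change -0.20, 95% interval -0.54 to 0.14).

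Of the 4 satellite and basal body genes, Cep126 and Cep72 fell. Cep126 (ENSMUSG00000040729, chr9:8076461-8134294, minus strand) had 97.2, 75.8, 81.0 and 70.7 normalised reads across the 4 wild-type libraries in order and 32.7, 31.6, 55.8 and 43.0 across those labelled knockout. The wild-type mean was 1.99 times the mean under the knockout label, with no overlap (log2 fold change -1.0 ± 0.220, FDR = 0.00909). Cep72 had 414, 380.1, 402 and 351 in wild type and 263, 256, 314 and 309 under the knockout label, also without overlap (log2 fold change -0.44 ± 0.119, FDR = 0.0179), and the call was lost without knockout 1, wild type 1 or wild type 2 (log2 fold change -0.45 to -0.40, FDR 0.0508 to 0.0616). Ofd1, an X-linked gene for a protein of centriolar satellites and distal centrioles, had 333, 259, 254 and 185 in wild type and 212, 207, 228 and 229 under the knockout label, where wild type 4 was the lowest library and wild type 1 the highest (log2 fold change -0.21, 95% interval -0.56 to 0.15). Cep131, a satellite protein, had 378, 494, 401 and 610.4 in wild type and 601, 324, 498 and 573 under the knockout label, with wide spread in both genotypes (log2 fold change 0.07, 95% interval -0.36 to 0.50).

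Cep170 and Cep350 were the 2 of 8 cohesion and microtubule genes that fell, and both act where microtubules are anchored at the centrosome. Cep170 (ENSMUSG00000057335, chr1:176733653-176814067, minus strand) had 4686, 3813, 2857 and 2776 normalised reads across the 4 wild-type libraries in order and 1656, 1907, 2143 and 2511 across those labelled knockout. Wild type 1 was highest, and the groups did not overlap (log2 fold change -0.76 ± 0.172, FDR = 0.00958). Its relative Cep170b had 410.3, 437, 415 and 544 in wild type and 403, 324, 462 and 585 under the knockout label, with full overlap (log2 fold change -0.05, 95% interval -0.41 to 0.32). Cep350 had 1562, 1402, 1059 and 924 in wild type and 564, 572, 758 and 1009 under the knockout label, with knockout 4 above wild type 4 (log2 fold change -0.78 ± 0.201, FDR = 0.0153), and the call was lost without knockout 1, wild type 1 or wild type 2 (log2 fold change -0.71 to -0.66, FDR 0.0510 to 0.0589). Cep68 and Cep250, which belong to the linker between the centrioles, were not called (log2 fold change -0.26 ± 0.111, FDR = 0.0924 for Cep68 and -0.22 ± 0.155, FDR = 0.303 for Cep250), and 11.1% of the exonic bases of Cep250 overlap 6430550D23Rik.

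All 9 remaining Cep-named genes had negative log2 fold changes, and Cep85l and Cep78 fell. Cep85l had 251, 204, 263 and 204 in wild type and 123, 81.1, 149 and 172 under the knockout label, without overlap (log2 fold change -0.85 ± 0.210, FDR = 0.0131). Cep78 (ENSMUSG00000041491, chr19:15955773-15984989, minus strand), a protein of the centriole wall, had 686, 609, 657 and 566 normalised reads across the 4 wild-type libraries in order and 442, 422, 498 and 494 across those labelled knockout. Its groups did not overlap (log2 fold change -0.44 ± 0.110, FDR = 0.0137). The transcript of Cep78, at 2667 nt, is shorter than the median member's. Cep55, which acts in the final separation of daughter cells, had 814, 643, 703 and 566 in wild type and 573, 516, 609 and 596 under the knockout label and was not called (log2 fold change -0.24 ± 0.124, FDR = 0.164).

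The signalling members and the motile cilium regulator were not called by limma, edgeR or DESeq2 (0 of 3, with 1 at an unadjusted p under 0.05). Arl13b, the small GTPase that marks the ciliary membrane, had 439.7, 453, 398 and 305 in wild type and 356, 403, 330.3 and 366 under the knockout label. Its groups overlapped (log2 fold change -0.12, 95% interval -0.42 to 0.18). Kif7, the kinesin that organises the ciliary tip for Hedgehog signalling, had 210.0, 253, 297 and 339 in wild type and 304, 227, 326 and 311 under the knockout label, with overlap (log2 fold change 0.10, 95% interval -0.26 to 0.46), and 19.1% of its exonic bases overlap the antisense gene 9330171B17Rik. Foxj1, the transcription factor that switches on the motile cilium programme in ependymal cells, had 299, 382, 360.0 and 520.3 in wild type and 490.0, 477, 478 and 494 under the knockout label. The knockout-labelled values were nearly equal to each other and lay below wild type 4 but above wild type 1 to 3 (log2 fold change 0.34 ± 0.149, FDR = 0.101). Beside Foxj1, 4 other ependymal markers of the list were measured. Their summed level was low, at 38.3 to 63.9 normalised reads in wild type and 41.1 to 124 under the knockout label, with overlap. Of the 4, Ccdc153 was called higher (11.7 ± 7.81 against 29.0 ± 12.6), though not after the trend was subtracted or by edgeR, and Tmem212 had no row. Their part in the value of Foxj1 was not tested.

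Per length, members covered a wide range in wild type. Values here are normalised reads per kilobase of the longest annotated transcript, which need not be the expressed one. Cep170 was highest at 507 ± 129 (SD, n = 4), followed by Kif3a at 475 ± 28.1, Cep57 at 466 ± 68.6, Ift27 at 447 ± 69.7 and Ift20 at 413 ± 20.9. Neighbours among these 5 differed by less than the SD of Cep170, Cep57 or Ift27, so the order of neighbours was not resolved. Kif3a and Ift20 differed by more than the SD of either. At the lower end stood Cep295nl at 2.05 ± 1.30, Cep112 at 15.8 ± 2.24, Cep126 at 21.3 ± 3.0, Bbs10 at 26.4 ± 4.40, Cep85l at 31.1 ± 4.20 and Ift88 at 31.7 ± 4.73. Cep295nl, with fewer than 8 normalised reads in each library, stood below the others beyond its SD. Within the motors, the 2 kinesin-II subunits were at 475 ± 28.1 for Kif3a and 239 ± 20.6 for Kif3b, above 171 ± 18.6 for Dync2li1 and 48.1 ± 8.06 for Dync2h1, and these 4 levels were separated by more than their SDs. BBSome subunits lay between 45.3 ± 3.53 for Bbs4 and 152 ± 11.1 for Bbs7. The lowest of the transition zone genes was Cep290 at 37.6 ± 13.1.

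The direction of the members moved with their transcript length. Across the 75 members, Spearman's rho between log2 fold change and length was -0.61, and across 13265 genes of the table it was -0.60, both given as descriptions since all genes share the same 8 libraries. Of the 25 shortest members (838 to 2950 nt) 2 rose and 1 fell, of the middle 25 (3047 to 5151 nt) 1 rose and 5 fell, and of the longest 25 (5205 to 14264 nt) none rose and 12 fell, all 25 having a negative value. With a smooth trend on length and GC content subtracted from each library, rho was -0.08, and 2 members were called higher and 7 lower, beside 10.4% and 7.79% of all genes (18.2% in either direction). The median log2 fold change of the members was -0.09 in that fit. With the principal transcript in place of the longest, the counts were again 2 and 7, beside 10.3% and 7.26% (17.5% in either direction).

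Of the 21 called members, 7 kept their call after the trend was subtracted, whether length was taken from the longest or from the principal transcript of the gene. These were Ift22 (log2 fold change after subtraction 0.59 with the longest transcript), Kif3a (-0.40), Cep290 (-0.67), Cep126 (-0.83), Cep78 (-0.56), Cep135 (-0.54) and Cep170 (-0.34). With the longest transcript the other 14 lost the call, including Ift27 (0.23), Ift20 (0.05), Dync2h1 (-0.24), Cep350 (-0.21) and Rpgrip1l (-0.22). Ift80 lost it with the longest transcript, of 7616 nt (-0.11), and kept it with the principal one, of 4064 nt (-0.34). Bbs2 (-0.33) and Cep97 (0.27), which limits centriole growth as a partner of Ccp110, were newly called with the longest transcript, and with the principal one only Cep97 was. Cep97, and Cep57 above, fell outside the rule for named genes and were picked with their values known. By group, the subtracted fit called 1 transport gene higher and 1 lower, 1 BBS gene lower, 1 transition zone gene lower, and 1 centrosomal gene higher and 4 lower.

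Without the 4 libraries with the steepest length slopes (wild type 1 and 2, knockout 1 and 2), 3 members fell and none rose (0 higher by limma, with 9 members at an unadjusted p under 0.05 in either direction), beside 4.54% of all genes lower and 4.61% higher (9.15% in either direction). These were Dync2h1 (-0.43), Cep85l (-0.53) and Cep135 (-0.40). With the slope of each library as a covariate no member was called (0 of 75, 2 at an unadjusted p under 0.05), beside 1.09% of all genes (0.656% higher and 0.438% lower). The slopes of the genotypes do not overlap in these libraries, so their parts cannot be told apart in that fit. Ift22 was 0.25 in the first of these fits and 0.12 in the second.

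**Figure D4:**
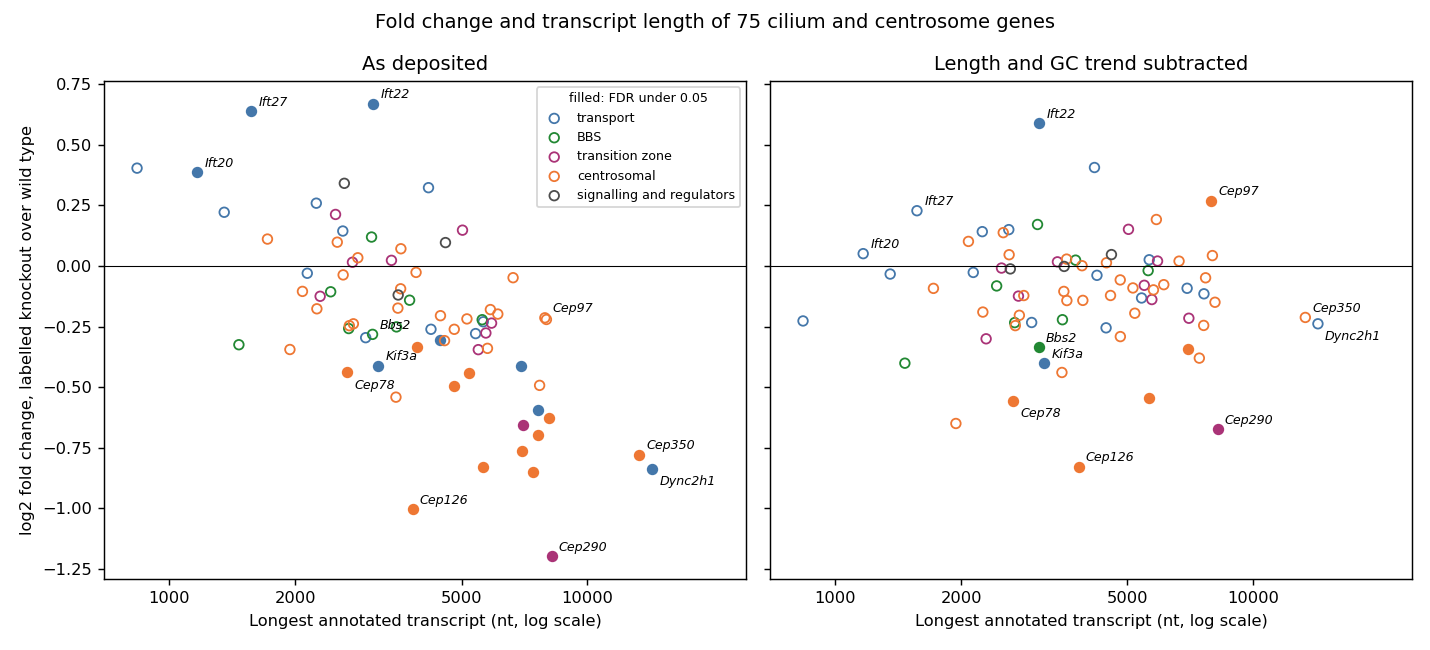
Log2 fold change (labelled knockout over wild type, vertical axis) against the length of the longest annotated transcript (nt, log scale, horizontal axis) for the 75 members, as deposited on the left and with the length and GC trend subtracted on the right. On the left all 25 of the longest members lie below 0, and on the right Cep126 at -0.83, Cep290 at -0.67, Cep78 at -0.56 and Ift22 at 0.59 stand farthest from 0 among the called.

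Single libraries also mattered. Leaving out knockout 1 removed 11 of the 21 calls, wild type 1 removed 10 and wild type 2 removed 9, while knockout 4 removed 0. The 10 calls present whichever library was left out were Ift22, Ift27, Ift80, Dync2h1, Cep290, Cep126, Cep135, Cep170, Cep78 and Cep85l.

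Genes of the same structures that carry other names were described from lists. Beside the counts of these lists, 14.8% of all genes were called higher and 14.8% lower. After subtraction of the trend the shares of all genes were 10.4% higher and 7.79% lower. Of 27 genes listed as other centriole and centrosome genes, 18 fell and 3 rose, with a median log2 fold change of -0.46. Their median transcript length was 5093 nt, against 3318 nt over all genes. After subtraction of the trend, 9 were lower and 1 higher (median -0.23). The 18 include Azi2 (log2 fold change -0.30, FDR = 0.0487), which is not an established centrosome gene. Azi2 was not called after subtraction (-0.19). Nin, a subdistal appendage protein, fell with 1524 ± 169 against 855 ± 215 normalised reads (log2 fold change -0.86 ± 0.160, FDR = 0.00526), and Cntrl, which also sits on the appendages, with 1319 ± 186 against 773 ± 172 (log2 fold change -0.79 ± 0.155, FDR = 0.00642). The 3 that rose, named after their values were seen, were Cby1 (0.74), Poc1a (0.63) and Tubg1 (0.48). After subtraction Nin (-0.35), Cntrl (-0.37) and Poc1a (0.38) were still called, while Cby1 (0.22) and Tubg1 (0.09) were not. Of 12 cell cycle genes 4 fell and none rose, among them Top2a (log2 fold change -0.63 ± 0.137, FDR = 0.00870) and Mki67 (-0.72 ± 0.167, FDR = 0.0107), of which Top2a was still called after subtraction (-0.34) and Mki67 was not (-0.20). The others that fell were Cenpf (-0.69 ± 0.168, FDR = 0.0127) and Bub1 (-0.43 ± 0.129, FDR = 0.0271), and of these Bub1 was still called (-0.30) and Cenpf was not (-0.12). Ccnb2, uncalled before at -0.03, was newly called lower after subtraction (-0.31, FDR = 0.00694). The summed level of the 12 was 54091 to 64776 normalised reads in wild type and 48786 to 50936 under the knockout label, without overlap. Without Mki67 and Top2a the sums overlapped, at 33522 to 36407 in wild type and 31614 to 38683 under the knockout label. The part of cell cycle genes in the values of the centrosomal genes was not tested.

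Of 11 further IFT genes, Traf3ip1 rose (log2 fold change 0.41 ± 0.118, FDR = 0.0214) and Ttc26 fell (-0.54 ± 0.173, FDR = 0.0346), and after subtraction only Traf3ip1 of this pair was called (0.42, against -0.35 for Ttc26). None of 5 further motor genes and none of 5 further BBS genes was called by limma, edgeR or DESeq2 (0 of 5 each, with 1 motor gene and 0 BBS genes at an unadjusted p under 0.05). Of 14 further transition zone genes, B9d1 fell (log2 fold change -0.61 ± 0.148, FDR = 0.0122) and so did Invs (-0.51 ± 0.137, FDR = 0.0170), while B9d2 (0.59) and Tmem107 (0.50) rose. After the trend was subtracted B9d1, a gate protein that works with Mks1, was at -1.10 and was the only one of the 14 called. Of 14 ciliary signalling genes, Adcy3, the adenylyl cyclase used as a marker of neuronal cilia, fell (log2 fold change -0.86 ± 0.170, FDR = 0.00642), and Ptch1, the Hedgehog receptor, fell (-0.56 ± 0.170, FDR = 0.0276). Arl3, the GTPase that releases lipidated cargo inside the cilium, rose (log2 fold change 0.86 ± 0.195, FDR = 0.0101), and Pde6d, its cargo carrier, rose (0.61 ± 0.150, FDR = 0.0132). After subtraction Adcy3 was still called (-0.75), and Ptch1 (-0.05), Arl3 (0.53) and Pde6d (0.22) were not. Gli2, uncalled before at 0.33, was newly called higher in that fit (0.49, FDR = 0.0475).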

How the data were processed

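Bulk RNA was sequenced from 8 neurosphere libraries, 4 WT and 4 Phf23-/-. The submitters' processing notes name STAR 2.7.1a, fastp 0.23.4, FastQC 0.12.1, DESeq2 1.38.3 and build mm10. Each deposited signal value was a whole number of reads over the size factor of its library (0.889 to 1.07, worked out from the values), with 100% of values whole within 1e-04 reads. The counter, annotation and strand setting were not given in the sources used here. Of 15602 rows, 64 repeated another and were dropped. The lowest gene total was 11 reads, so genes below that had been left out before deposit.

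Symbols, coordinates and lengths came from GENCODE M21. Tctn2, not coding there, is coding in RefSeq and was kept. limma 3.58.1 in R 4.3.3 (limma-trend, robust, genotype only) tested all 15538 genes on log2(value + 1), a scale that understates changes of genes with few reads. P-values were adjusted by Benjamini-Hochberg and called at 0.05. Every FDR in the text without another tool's name is limma's. Fold changes are given ± SE and means ± SD over n = 4. Alternatives were edgeR 4.0.16, DESeq2 1.42.0 and voom on recovered reads (edgeR called 4717 of 13324 genes), other scalings, a pseudocount of 0.1, a minimum mean of 10, an absolute log2 fold change of 0.5, a replicate block, each library left out, a loess trend (span 0.3) on length and GC content, the library slope as a covariate and the removal of 4 libraries. The trend on principal transcripts was added after the data were seen.

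Members and lists were chosen with earlier results of these data known. The rule named up to 4 members of each class with the lowest FDR, its highest and lowest per length, the 8 largest called changes each way and Arl13b, Kif7, Foxj1, Ofd1, Cep290, Kif3a, Kif3b and Dync2h1. Of other lists it named up to 2 genes. Genes called in a list of 5 or fewer calls are named beyond that. Some genes that these rules would name are not reported here.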

Additional observations from a re-analysis of the deposited data

Results flagged for a closer look

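In groups of 4 libraries, the gap of the highest or lowest library to its neighbour was divided by the range of the group and set against Dixon's 95% critical value. This was done in 104 groups (52 named members in 2 genotypes), and chance alone passes about 1 in 20 groups. Cep19 in wild type 2 stood at 434 normalised reads, above the other 3 wild-type libraries at 369 to 371 (gap over range 0.967). Cep164 in wild type 3 stood at 723, below the other 3 at 879 to 909.8 (0.836). Ift43 in knockout 1 stood at 330.2, above the other 3 at 217 to 236 (0.831).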

How the results depend on the processing

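The 3 higher and 18 lower members were called by edgeR, voom and limma with TMM scaling, and DESeq2 called 4 and 18. The counts moved with the treatment of transcript length. With the length and GC trend subtracted, 7 members were lower with either transcript choice. With the slope covariate the counts were 0 and 0, and without the 4 steepest libraries they were 0 higher and 3 lower. At an absolute log2 fold change of 0.5 or more, 11 were lower. With single libraries left out, counts ran from 2 to 5 higher and from 8 to 25 lower, while calls over all genes ran from 1884 to 5861. Cep192 (0.11) and Cep350 (0.064) changed sign with the slope covariate. Among 31 named members that were not called, 56 of 677 alternative values had the opposite sign. Scaling by library size only lowered the median of all genes by 0.06 and gave 1827 genes higher and 2757 lower, beside 2301 and 2292. The labels do not say whether libraries with the same replicate number are pairs. Deviations of same-numbered libraries correlated at -0.33, -0.13, -0.19 and -0.28 over 13271 genes, and no library correlated best with its own number. These deviations also hold the length slopes of the libraries, so the correlations cannot decide whether the numbers pair the samples. With the replicate block 0 members were higher and 0 lower in limma (22 at an unadjusted p under 0.05), and 333 genes were called in all. Depth bears most on Cep295nl, which had fewer than 8 normalised reads in each library.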

Other observations

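Regulators of cilium formation and removal were also measured. Over all genes, 14.8% were called higher and 14.8% lower. With the length and GC trend subtracted these shares were 10.4% and 7.79%. Of 9 genes for RFX factors and multiciliogenesis, Rfx3 fell (1296 ± 293 against 765 ± 166 normalised reads, log2 fold change -0.76 ± 0.179, FDR = 0.0112) and so did Rfx7 (2218 ± 539.8 against 1459 ± 233, -0.59 ± 0.165, FDR = 0.0208), and after the length and GC trend was subtracted neither was called (-0.21 for Rfx3 and -0.11 for Rfx7). Mcidas and Gmnc, which start the multiciliated programme, had no row in the table. Of 8 genes for cilium disassembly, Ndel1 rose (655 ± 74.4 against 845 ± 68.0, log2 fold change 0.37 ± 0.112, FDR = 0.0270) and Cdc20 rose (3105 ± 299 against 3869.7 ± 384, 0.32 ± 0.107, FDR = 0.0408), and neither was called after subtraction (0.22 and -0.04). Nek2 of the same list, uncalled before at -0.25, was newly called lower after subtraction (-0.28, FDR = 0.0212). Of 13 measured genes of the motile cilium, Dnaic1, an outer dynein arm chain, rose (32.3 ± 3.64 against 66.2 ± 20.8 normalised reads, log2 fold change 0.97 ± 0.240, FDR = 0.0132) and was also called after subtraction (0.80). Ccdc153 passed limma's test (log2 fold change 1.42 ± 0.50, FDR = 0.0485) on 11.7 ± 7.81 against 29.0 ± 12.6 normalised reads, but it was not called after subtraction (1.01) or by edgeR, while DESeq2 called it.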
